A study of Mus musculus with 19 samples.

Results

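The genes described here are interferon-stimulated genes, a set of 40 genes chosen by symbol, in differentiated mouse 3T3-L1 cells exposed to fatty acids. Of the 40 members, 37 were measured, among 18820 genes on the arrays that have a probe set carrying a single gene symbol. Each gene was represented by its brightest such probe set. Parp9 and Dtx3l lie on probe sets annotated with both of their symbols and so gave no value, and Ifi44 was not analysed here. All 37 measured members entered every test, with no filter on low signal.

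3T3-L1 is a mouse fibroblast-derived line that turns into fat-storing, adipocyte-like cells under a hormone cocktail. The arrays cover 5 groups, each kept serum-free from day 7 and treated for 48 h from day 8 in medium with 2% BSA. Control cells received the ethanol vehicle alone (n = 4). The other groups received 250 µM of palmitic acid (PA, n = 4), palmitoleic acid (PMA, titled PMO in the labels, n = 4), stearic acid (SA, n = 4) or oleic acid (OA, n = 3). PA and PMA share a chain of 16 carbons and SA and OA a chain of 18 carbons. PA and SA are saturated, and PMA and OA each carry 1 double bond. The labels call the replicates biological without naming their cultures or days, so p-values measure the spread between these arrays. Values are log2 signals, and a difference of 1 is a doubling.

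Type I interferons bind the receptor made of Ifnar1 and Ifnar2. Its kinases Jak1 and Tyk2 activate STAT proteins, which join Irf9 and bind interferon-stimulated response elements in front of target genes. The products sense foreign nucleic acid, block viral translation and entry, and tune the signal itself through proteins such as Irf7 and Usp18. Many of these genes are also active at a low level without infection, adipocytes included.

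Adipocyte markers were bright on every array. Adipoq, the adiponectin gene, averaged between 12.19 and 12.29 in the 5 groups and Fabp4, a fatty acid carrier, between 12.33 and 12.40. The mean of 13 adipocyte markers lay between 11.24 and 11.37 on every array. Adgre1, a defining macrophage marker, averaged 3.51 to 3.58 in the groups, and the mean of 15 macrophage and leukocyte markers ran from 4.63 to 4.84 over the arrays. Cd68, another of the 15, was brighter, at 5.94 to 6.79 over the arrays. The mean of 10 preadipocyte and fibroblast markers ran from 9.24 to 9.49 and was lowest on PA replicate 1. It lay between 9.26 and 9.31 on the control arrays and between 9.33 and 9.49 on every PMA, SA and OA array. Array medians lay between 5.23 and 5.43. PA replicates 2 and 4 stood apart on the first principal component, at -27.4 and -13.8. They also had raised medians, of 5.43 and 5.36, as did PMA replicates 1 and 4, of 5.41 and 5.35. PA replicate 1 was unremarkable by both measures, with a median of 5.26 and a component value of 3.75, but it stood apart for the interferon-stimulated genes: it held the highest of the 19 values for 15 of the 37 members. The calls of members that rest on PA arrays are therefore given with and without it. Because it was picked out by its high member values, leaving it out tends to lower the members in PA.

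Motifs known for interferon-activated factors occur in the members' promoters. In the RefSeq promoter table of build GRCm38.p6, 30 of the 40 members matched, with 35 promoters of 300 bases (250 before the start and 50 after). The core of the interferon-stimulated response element, GAAA followed by any 2 bases (NN) and GAAA, was searched on both strands and found in 16 of the 35 promoters (45.7%), against 1131 of all 32851 promoters (3.44%). The interferon-gamma-activated site, TTC, any 3 bases (NNN) and GAA, occurred in 8 (22.9%), against 8.30% of all promoters. Matches were counted whether or not they overlapped, and 5 member promoters held both motifs. A match is a description of the sequence and not a bound site.

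The 250 bases before the start are shown for Rsad2, Ifit1, Bst2 and Gbp2, the 4 members with the smallest p in any comparison among those with the core in that stretch. Capitals mark the core on either strand.
Rsad2, chr12:26456453-26456702, minus strand: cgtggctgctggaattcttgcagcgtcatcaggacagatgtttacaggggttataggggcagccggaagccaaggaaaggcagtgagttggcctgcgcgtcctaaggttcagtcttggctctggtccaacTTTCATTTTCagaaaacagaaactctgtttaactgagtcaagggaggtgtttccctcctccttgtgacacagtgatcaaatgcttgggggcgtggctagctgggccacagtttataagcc
Ifit1, chr19:34640639-34640888, plus strand: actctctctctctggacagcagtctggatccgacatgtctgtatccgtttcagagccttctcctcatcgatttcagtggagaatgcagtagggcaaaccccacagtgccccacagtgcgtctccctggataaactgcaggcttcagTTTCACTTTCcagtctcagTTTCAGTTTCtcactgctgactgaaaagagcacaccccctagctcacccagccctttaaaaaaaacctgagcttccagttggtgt
Bst2, chr8:71537473-71537722, minus strand: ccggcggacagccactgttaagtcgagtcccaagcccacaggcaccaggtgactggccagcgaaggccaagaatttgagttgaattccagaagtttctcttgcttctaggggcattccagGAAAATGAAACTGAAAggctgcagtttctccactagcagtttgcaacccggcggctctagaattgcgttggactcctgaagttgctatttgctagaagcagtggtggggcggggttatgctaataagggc
Gbp2, chr3:142620413-142620662, plus strand: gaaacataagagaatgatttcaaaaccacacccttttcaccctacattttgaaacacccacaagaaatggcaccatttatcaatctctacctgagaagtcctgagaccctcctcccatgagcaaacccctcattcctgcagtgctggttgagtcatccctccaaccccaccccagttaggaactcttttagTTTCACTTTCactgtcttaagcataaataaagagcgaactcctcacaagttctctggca
In Rsad2 the core begins 120 bases before the start, in Ifit1 the 2 cores begin 104 and 85 bases before it, and in Gbp2 the core begins 59 bases before it. The 2 cores of Bst2, at 130 and 124 bases, overlap.

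The members spanned a wide range of signal, from Mx1 at 4.25 to 4.38 in the group means to Ifitm3 at 10.77 to 11.06. Signals of different probe sets are not comparable as amounts of RNA, but 8 members averaged under the array medians and 6, Rsad2 among them, lay among the dimmest genes that a filter tried in the closing section leaves out. Small differences of such members sit close to the background of the array. The spread between replicates of a group, pooled over groups, ran from 0.08 for Lgals3bp to 0.33 for Ifit1, against a median of 0.098 over all genes. Averaged over the members, that spread was 0.20 in PA and between 0.099 and 0.123 in the other 4 groups.

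**Figure D1:**
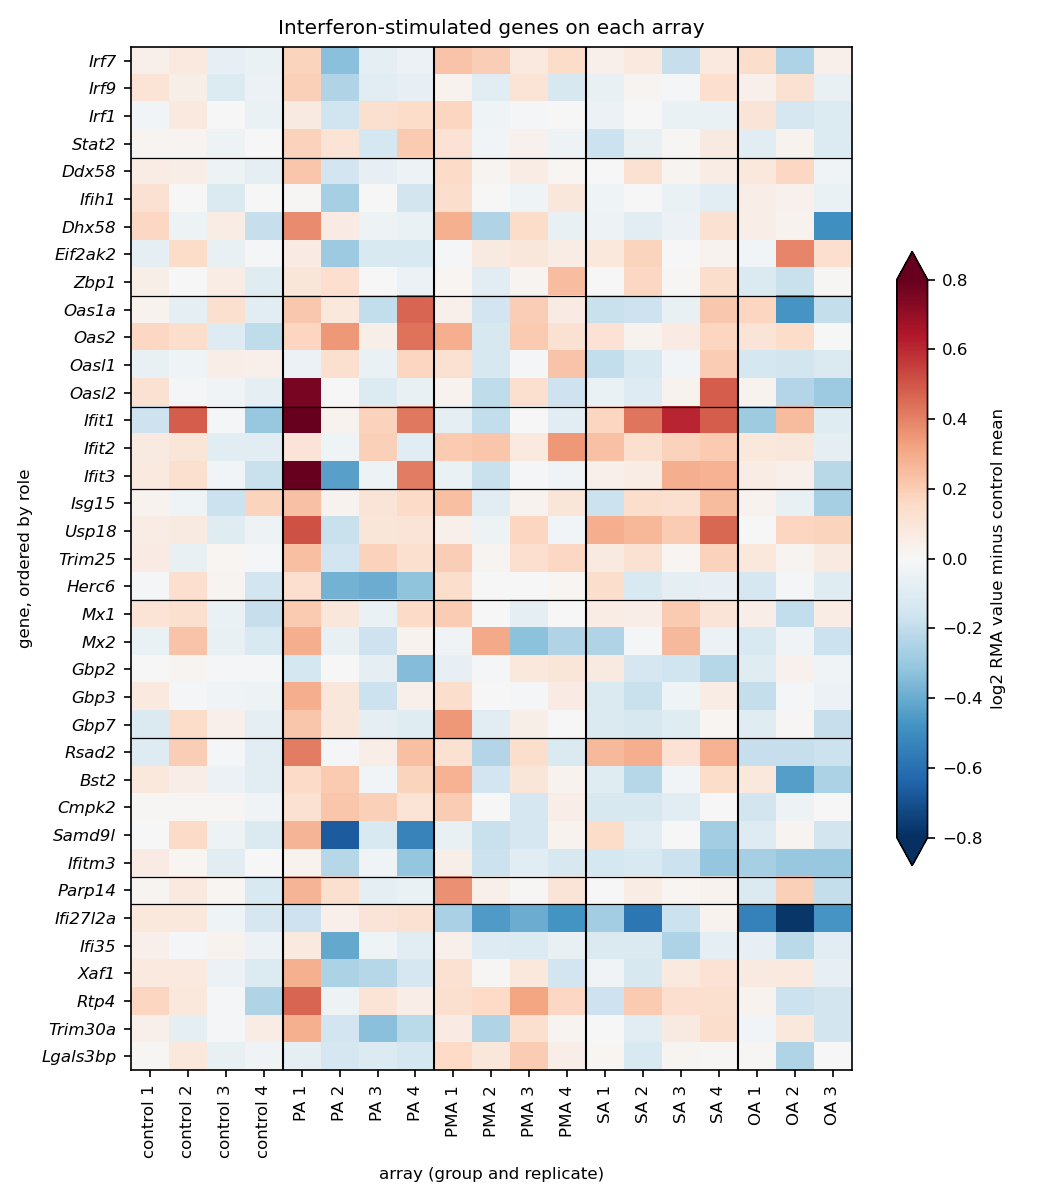
Heat map of the 37 measured members (rows, grouped by role) on the 19 arrays (columns), coloured by the log2 signal minus the mean of the 4 control arrays, with the colour scale ending at 0.8 in either direction. PA replicate 1 shows a column of higher values through most roles, and Ifi27l2a is lower on the PMA and OA arrays.

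Ifi27l2a, a small hydrophobic protein strongly induced by interferon, passed in 4 of the 12 comparisons. Its log2 signal was 9.23, 9.23, 9.11 and 9.01 in control cells and 8.97, 9.18, 9.25 and 9.26 in PA. In PMA it was 8.88, 8.69, 8.74 and 8.66, in SA 8.86, 8.56, 8.97 and 9.17, and in OA 8.60, 8.36 and 8.67. All PMA and OA arrays lay below all control and PA arrays, and the SA arrays overlapped each of the other groups. Ifi27l2a fell by 0.60 in OA against control (SE 0.11, 95% confidence interval -0.82 to -0.37, limma adjusted p = 0.0117). It was higher in PA than in OA by 0.62 (SE 0.11, 0.40 to 0.85, adjusted p = 0.00501) and higher in PA than in PMA by 0.42 (SE 0.10, 0.22 to 0.63, adjusted p = 0.0426). Against control the PMA difference was -0.40 (SE 0.10, adjusted p = 0.0798) and the SA difference -0.25 (SE 0.10, adjusted p = 0.432); neither passed, though the PMA difference did under 5 of the other settings. In whole-culture RNA, fewer cells making a transcript and less of it per cell cannot be told apart.

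The OA call was lost without OA replicate 2 (-0.51, adjusted p = 0.0769). The PA to OA call passed without any 1 of the 19 arrays, with a largest adjusted p of 0.0397 without OA replicate 2. It was 0.69 without PA replicate 1 (adjusted p = 0.00306), and was lost without PA replicates 2 and 4 together (adjusted p = 0.0616) and when the other groups' arrays were left out of the fit (adjusted p = 0.0562). The PA to PMA call passed in 7 of the 19 fits that leave out 1 array, that without PA replicate 1 included (0.49, adjusted p = 0.0232). It missed the threshold without control replicate 1 (adjusted p = 0.053) or 3 (0.0583), PA replicate 2 (0.0867) or 4 (0.143), PMA replicates 1 to 4 (0.0593, 0.072, 0.0903 and 0.145), SA replicate 1 (0.0517) or 3 (0.0561), and OA replicate 1 (0.0555) or 3 (0.0502). It also missed it with every probe set tested (adjusted p = 0.104), a replicate block (0.0562), a fit to the compared groups alone (0.0866), and without PA replicates 1 and 2 (0.0617), PA replicates 2 and 4 (0.342) or PMA replicates 1 and 4 (0.212).

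**Figure D2:**
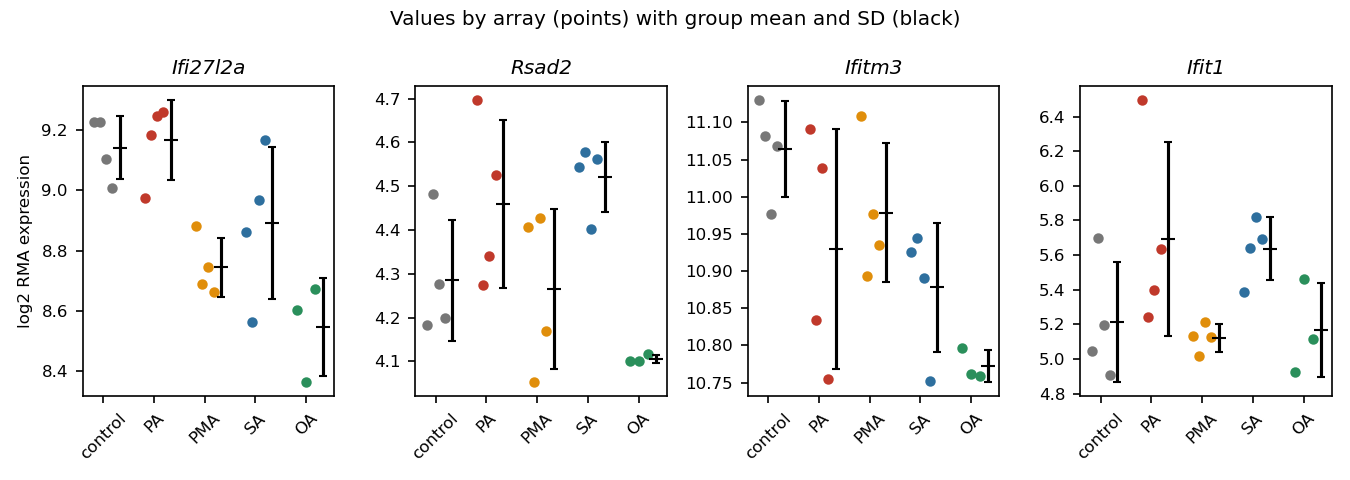
Log2 signal of Ifi27l2a, Rsad2, Ifitm3 and Ifit1 on each of the 19 arrays (points), by group, with the group mean and SD as bars. Ifi27l2a is lowest in OA (8.36 to 8.67), Rsad2 is lowest in OA (4.10 to 4.12) apart from 1 PMA array at 4.05, and the highest Ifit1 value, 6.50, is PA replicate 1.

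Rsad2 encodes viperin, a radical SAM enzyme that makes an antiviral nucleotide. Its log2 signal was 4.18, 4.48, 4.28 and 4.20 in control cells, 4.70, 4.27, 4.34 and 4.53 in PA and 4.54, 4.58, 4.40 and 4.56 in SA. It was 4.41, 4.05, 4.43 and 4.17 in PMA and 4.10, 4.10 and 4.12 in OA. The OA arrays lay below all control, PA and SA arrays, while PMA overlapped every group. Over both chain lengths Rsad2 was higher with the saturated acids by 0.31 (SE 0.07, 0.17 to 0.44, limma adjusted p = 0.0354). The SA to OA difference of 0.42 (SE 0.10, adjusted p = 0.571) and the PA to OA difference of 0.35 (SE 0.10, adjusted p = 0.0652) did not pass, and without PA replicate 1 the latter was 0.27 (adjusted p = 0.0702).

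That call for Rsad2 held in 9 of the 19 fits that leave out 1 array. It was lost without PA replicate 1 (0.27, adjusted p = 0.0559) or 4 (0.0907), PMA replicate 2 (0.0718) or 4 (0.0822), SA replicate 1 (0.057), 2 (0.0799) or 4 (0.0823), and OA replicate 1 (0.0902), 2 (0.0682) or 3 (0.104). It was also lost with every probe set tested (adjusted p = 0.114), cyclic loess between arrays (0.0798), a replicate block (0.0691), a fit to the compared groups alone (0.0551) and without PMA replicates 1 and 4 together (0.109). Cmpk2, a mitochondrial nucleotide kinase, is the neighbour of Rsad2 on chromosome 12 with no protein-coding gene between them. Its log2 signal was 4.46, 4.46, 4.46 and 4.42 in control cells, 4.57, 4.67, 4.64 and 4.56 in PA and 4.32, 4.32, 4.37 and 4.46 in SA. In SA, where every Rsad2 value but 1 exceeded all control values, all Cmpk2 values but 1 lay below all control values. The PA to SA difference of Cmpk2 was 0.25 (SE 0.06, adjusted p = 0.124) and passed only without PA replicate 1 among the fits run (0.26, adjusted p = 0.0451).

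Among the other membrane effectors, Ifitm3, which blocks viral entry at endosomes, was 11.13, 11.08, 10.98 and 11.07 in control cells and 10.80, 10.76 and 10.76 in OA. It was 10.93, 10.94, 10.89 and 10.75 in SA, 11.09, 10.83, 11.04 and 10.75 in PA and 11.11, 10.89, 10.98 and 10.93 in PMA. Neither OA nor SA overlapped control. The OA difference of -0.29 (SE 0.07, -0.45 to -0.14, limma adjusted p = 0.0689) did not pass, but it did so without PA replicate 1 (adjusted p = 0.0483) and under several other settings. Bst2, the virus tether tetherin, differed by 0.33 between PA and OA (SE 0.11, limma adjusted p = 0.1) and by 0.47 without OA replicate 1, which passed (adjusted p = 0.0395). Its OA values were 6.96, 6.44 and 6.63. Samd9l, a restriction factor for poxviruses, had PA values of 7.25, 6.31, 6.85 and 6.44, so that its PA group spanned the range of all other groups. All 5 members of the membrane and nucleotide group had an OA mean under control, by 0.06 to 0.29.

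The IFIT proteins bind viral RNA and block its translation. Ifit1 had the widest spread: 5.05, 5.70, 5.20 and 4.91 in control cells, 6.50, 5.24, 5.40 and 5.63 in PA and 5.39, 5.64, 5.82 and 5.70 in SA. In PMA it was 5.13, 5.02, 5.21 and 5.13, and in OA 4.93, 5.46 and 5.12. Every PA and SA array lay above every PMA array. The difference of saturated from monounsaturated acids was 0.52 (SE 0.14, 0.22 to 0.82, limma adjusted p = 0.124). It was 0.38 without PA replicate 1 (adjusted p = 0.0921), and it passed only without PA replicate 2 (0.59, adjusted p = 0.0486) and with array quality weights (0.56, adjusted p = 0.022). Its PA to control difference was 0.48 with PA replicate 1 (adjusted p = 0.271) and 0.21 without it (adjusted p = 0.385).

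Ifit3 followed the same order of arrays within PA, at 8.09, 6.77, 7.16 and 7.61, against 7.28, 7.33, 7.18 and 7.03 in control cells. Ifit2, its neighbour on chromosome 19, did not: it was 5.78, 5.64, 5.86 and 5.58 in PA. Its values were 5.88, 5.89, 5.75 and 6.02 in PMA and 5.91, 5.80, 5.86 and 5.89 in SA, against 5.74, 5.77, 5.59 and 5.59 in control cells. The SA values did not overlap control, but neither the SA difference (0.19, SE 0.07, limma adjusted p = 0.363) nor the PMA difference (0.21, SE 0.07, adjusted p = 0.15) passed.

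Isg15 is a ubiquitin-like modifier, Herc6 the ligase that attaches it in mice, Usp18 the protease that removes it and dampens receptor signalling, and Trim25 a ubiquitin ligase for RIG-I. Usp18 was 7.41, 7.39, 7.32 and 7.58 in SA, above all control values of 7.18, 7.20, 7.02 and 7.08, a difference of 0.31 (SE 0.10, 0.10 to 0.51, limma adjusted p = 0.288) that did not pass. Herc6 was 6.25, 5.74, 5.72 and 5.80 in PA, so PA replicate 1 alone reached the control range of 5.97 to 6.26. Its PA to control difference was -0.24 (SE 0.09, adjusted p = 0.253) with that array and -0.36 without it, which passed (adjusted p = 0.0255). Isg15 itself had group means of 4.42 in OA to 4.65 in PA, with overlapping values.

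None of the 4 transcription factors passed in any comparison with all arrays. Irf7, which amplifies interferon production, had group means of 6.15 in PA to 6.38 in PMA, Irf9 of 6.80 to 6.89, Irf1 of 8.06 to 8.15 and Stat2 of 7.08 to 7.23. Their differences from control lay between -0.07 and 0.16. A second, dimmer probe set of Irf1 had group means of 5.16 in SA to 5.32 in PA.

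The nucleic acid sensors Ddx58 (RIG-I), Ifih1, Dhx58 and Zbp1 and the RNA-activated kinase Eif2ak2 did not pass in any comparison with all arrays either. Eif2ak2, which stops translation when it binds viral RNA, was 7.81, 7.45, 7.62 and 7.62 in PA and 7.72, 8.14 and 7.88 in OA. The groups overlapped, and the difference of -0.29 (SE 0.09, -0.47 to -0.11, limma adjusted p = 0.0831) passed without PA replicate 1 (-0.35, adjusted p = 0.0236) or OA replicate 1 (-0.38, adjusted p = 0.0484). Its direction was opposite to that of Bst2 and Rsad2 in the same comparison.

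Oas1a and Oas2 belong to the enzymes that make the messenger activating RNase L, and Oasl1 and Oasl2 are their relatives. Oas1a, Oas2, Oasl1 and Oasl2 all averaged higher in PA than in OA, by 0.17 to 0.32, with none passing. Oasl1 was 5.77, 5.77 and 5.80 in OA, below the control values of 5.85 to 5.97. Oasl2, its neighbour on chromosome 5, was 7.05 in PA replicate 1 and 6.30, 6.18 and 6.23 in the other PA arrays. The GTPases Mx1, Mx2, Gbp2, Gbp3 and Gbp7 and the ADP-ribosyltransferase Parp14 differed from control by at most 0.14 in any group mean, and none passed.

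Of the remaining members, Lgals3bp, a secreted galectin-binding glycoprotein, had the tightest groups. It was 10.53, 10.48, 10.50 and 10.47 in PA and 10.77, 10.70, 10.81 and 10.66 in PMA, with no overlap. The control values of 10.62, 10.69, 10.55 and 10.58 lay above all PA values and overlapped PMA. The PA to PMA difference was -0.24 (SE 0.06, -0.36 to -0.12, limma adjusted p = 0.0502), opposite in sign to that of Ifi27l2a. It passed without PA replicate 1 (adjusted p = 0.0421), PA replicate 3 (0.0445) or OA replicate 2 (0.0243). Ifi35 lay below control without overlap in SA and in OA, at 6.69 to 6.86 and 6.72 to 6.87 against 6.89 to 6.98. Xaf1, Rtp4 and Trim30a did not pass in any comparison.

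**Figure D3:**
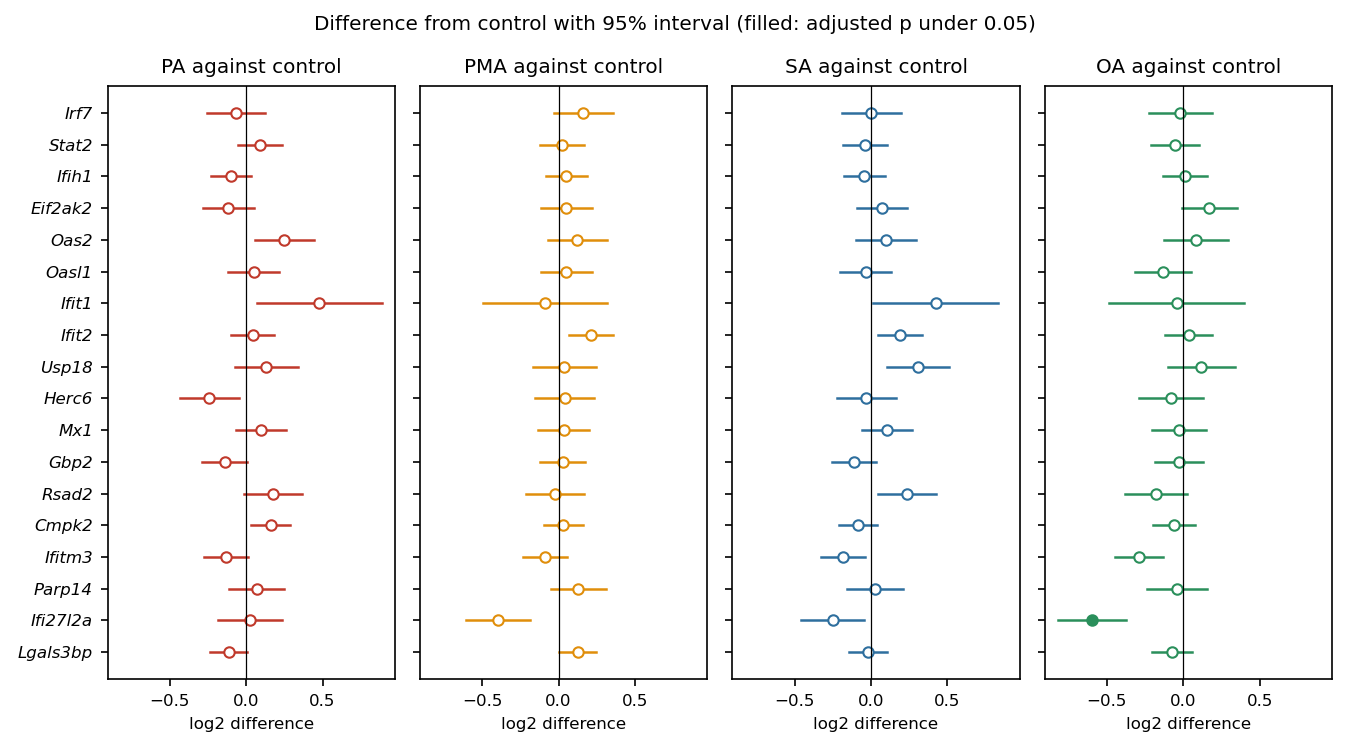
Log2 difference from control, with its 95% confidence interval, of the 18 members named by rule, for PA, PMA, SA and OA; filled points have a limma adjusted p under 0.05. The only filled point is Ifi27l2a in OA, at -0.60.

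Counted over the members, 0 of 37 rose against control with any of the acids. The 4 comparisons share the same 4 control arrays. In PA, 0 of 37 members passed (limma), with 4 at an unadjusted p under 0.05, and 0 of 18820 genes passed (0%). In PMA 0 members passed, with 3 at an unadjusted p under 0.05, against 0.266% of all genes passing. In SA 0 members passed, with 6 at an unadjusted p under 0.05, against 0.165% of all genes passing. In OA 1 member, Ifi27l2a, fell and 0 rose, against 0.861% of all genes passing in either direction and 0.404% falling. Without PA replicate 1 the OA count was 2, with Ifitm3 added, and without OA replicate 2 it was 0. The shares of all genes with an unadjusted p under 0.05 were 15.4% in PA, 16% in PMA, 8.53% in SA and 11.6% in OA, where 2 members had one.

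The lowest group mean was most often that of OA, for 18 of the 37 members and for 24.9% of all genes. The lowest single value lay on a PA array for 16 members, where 30.8% of all genes had theirs. It lay on an OA array for 13 members, where 16.7% of all genes had theirs. The OA member median was -0.06 against control, beside 0.02 for all genes, and 28 of 37 members averaged below control, while 56.7% of all genes averaged above it. Array by array, the member median against the control mean was -0.0012, -0.0071 and -0.098 on OA replicates 1, 2 and 3, with 18, 18 and 7 of 37 members above that mean. The 4 control arrays themselves ran from -0.074 to 0.075, with 4 to 29 members above it, so OA replicates 1 and 2 lay within the control range and OA replicate 3 below it. The OA median was -0.04 without OA replicate 3 and -0.03 without control replicate 2. Of the 10 preadipocyte and fibroblast markers, 0 passed by limma in OA against control, and 4 had an unadjusted p under 0.05, all with higher means in OA; their part in the result was not tested. Rsad2, Ifi27l2a, Oasl1, Ifi35 and Ifitm3 had every OA value below every control value, 5 of 37 members where 4.63% of all genes did so, and 0 members lay wholly above control, as 9.72% of all genes did. The medians for PA, PMA and SA were 0.05, 0.04 and 0.00, beside 0.03, 0.06 and 0.02 for all genes. Without PA replicate 1 the PA median was -0.01.

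In the other 3 comparisons with control, PA had Cmpk2 wholly above control and Lgals3bp wholly below it, with 3.9% and 1.65% of all genes in those directions. PMA had 0 members above (9.29%) and Ifi27l2a below (1.3% of all genes). SA had Ifit2 and Usp18 above (4.88%) and Ifi35 and Ifitm3 below (2.5%).

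The 6 pairs of acids share arrays with one another, and their values are given side by side. At 16 carbons, PA against PMA, 1 member passed, Ifi27l2a, which was higher in PA, against 0.962% of all genes passing and 0.106% passing as higher, and 11 had an unadjusted p under 0.05, as 17.7% of all genes did. The count was 3 without PA replicate 1, 2 without PA replicate 3 or OA replicate 2, with Lgals3bp added, and 0 without any 1 of the arrays listed above for that call of Ifi27l2a. Ifi27l2a and Ifit1 lay wholly above PMA in PA (0.919% of all genes) and Lgals3bp wholly below it (7.09%). At 18 carbons, SA against OA, 0 members passed by limma and 5 had an unadjusted p under 0.05 (Rsad2, Ifi27l2a, Ifit1, Ifit2 and Zbp1, all with higher means in SA), where 0.0319% of all genes passed and 2.4% had such a p. Of the 37 members 29 averaged higher in SA than in OA (78.4%), against 47.7% of all genes, with medians of 0.06 and 0.00. Rsad2, Ifit2 and Usp18 did not overlap between SA and OA, 3 members where 2.13% of all genes did so in that direction, and 0 lay wholly lower (2.5%).

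PA against OA gave 1 called member, Ifi27l2a, higher in PA, against 1.92% of all genes passing and 0.696% passing as higher. The unadjusted p was under 0.05 for 11 members, where 21.4% of all genes had such a p. The member median was 0.13, beside 0.02 for all genes, and 26 members averaged higher in PA (70.3%, against 55.5% of all genes). Without PA replicate 1 that median was 0.06. Rsad2, Ifi27l2a, Oasl1 and Cmpk2 lay wholly above OA in PA, 4 members where 6.67% of all genes did so, and 0 lay wholly below (7.84%). The count of calls was 2 without PA replicate 2 or 3 (with Rsad2) or PMA replicate 1 (with Cmpk2), and 3 without OA replicate 1 (with Bst2 and Eif2ak2). Without PA replicate 1, 4 members passed: Ifi27l2a and Cmpk2 as higher in PA, and Eif2ak2 and Herc6 as lower, with 1541 genes passing in all.

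In PA against SA, both saturated, 0 members passed by limma and 5 had an unadjusted p under 0.05, against 0.143% of all genes passing and 15.8% with such a p. Cmpk2 lay wholly above SA in PA (2.73% of all genes) and 0 members wholly below (2.57%). In PMA against OA, both with a double bond, 0 passed and 6 had an unadjusted p under 0.05, against 0.0531% and 8.61% of all genes. There, Rtp4, Herc6, Lgals3bp and Ifitm3 lay wholly above OA in PMA (4 members, 6.98% of all genes), 0 lay wholly below (1.92%), and 29 of 37 averaged higher in PMA, as did 70.8% of all genes. In SA against PMA 0 passed and 4 had an unadjusted p under 0.05, against 0.244% and 8.82% of all genes. Ifit1, Ifit3 and Usp18 lay wholly above PMA in SA (0.887%) and Lgals3bp wholly below it (4.2%). A p that misses the threshold does not show that these acids act alike. The intervals for Ifit1, for example, were 0.03 to 0.91 for SA against OA and 0.11 to 0.92 for SA against PMA.

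**Figure D4:**
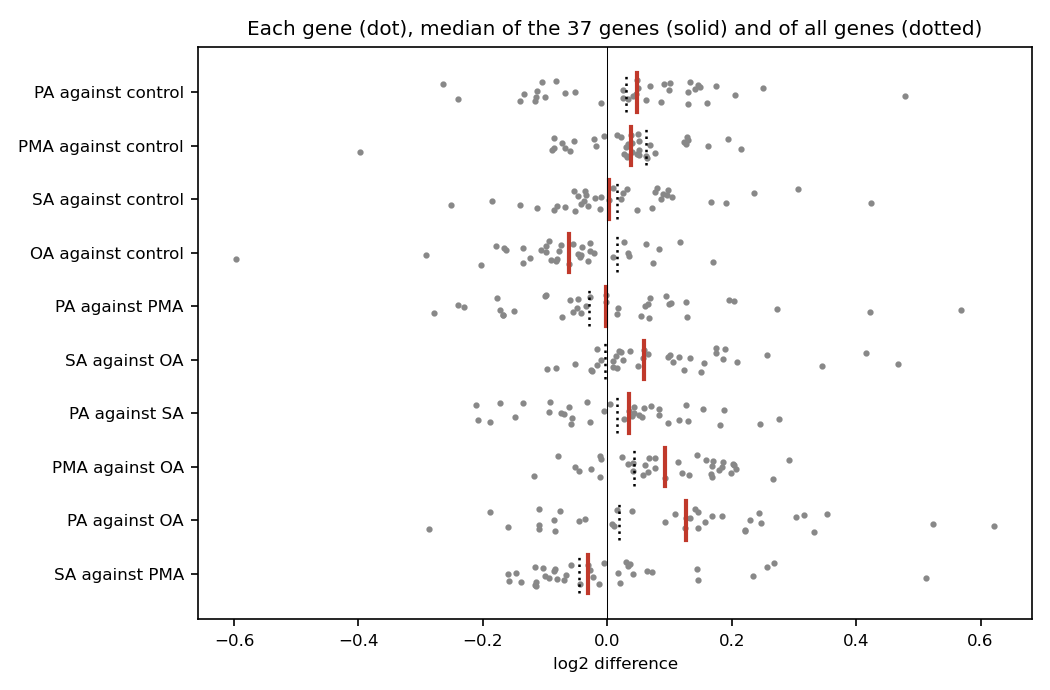
Log2 difference of each of the 37 members (dots) in 10 comparisons, with the member median (solid line) and the median of all 18820 genes (dotted line). The member median lies below that of all genes in OA against control (-0.06 and 0.02) and above it in PA against OA (0.13 and 0.02).

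Over both chain lengths, saturated against monounsaturated acids, 2 members passed, Ifi27l2a and Rsad2, both higher with the saturated acids, against 0.553% of all genes passing and 0.138% passing as higher. Ifi27l2a differed by 0.38 (SE 0.07, 0.23 to 0.54, limma adjusted p = 0.0135) and passed without any 1 of the 19 arrays (0.42 without PA replicate 1, adjusted p = 0.00628). It missed the threshold with every probe set tested (adjusted p = 0.0595), without PA replicates 2 and 4 (0.059) and without PMA replicates 1 and 4 (0.0504). The SA to OA difference of Ifi27l2a was 0.35 and its SA to PMA difference 0.15, and neither passed. The medians were 0.03 for the members and -0.01 for all genes, and 23 of 37 members were positive. The unadjusted p was under 0.05 for 8 members, as for 12.6% of all genes. No member had all its saturated values above or all below its monounsaturated values, as 0.0478% and 0.165% of all genes did. Of the members that did not pass, Gbp2 (-0.12), Eif2ak2 (-0.13), Ifih1 (-0.10) and Lgals3bp (-0.09) had negative differences with an unadjusted p under 0.05. In the same comparison 0 of the 10 preadipocyte and fibroblast markers passed by limma, but 7 had an unadjusted p under 0.05, 6 of them with lower means with the saturated acids. Their median was -0.09, beside -0.01 for all genes, and their mean ran from 9.24 to 9.42 on the PA and SA arrays and from 9.33 to 9.49 on the PMA and OA arrays. Their part in the member calls was not tested. Col1a1, a collagen chain, was the only one of them called in any of the 12 comparisons, higher in PMA than in control by 0.26 (SE 0.05, adjusted p = 0.0463), a call that passed in 5 of the 19 fits that leave out 1 array. The count of called members was 3 without PA replicate 2, with Ifit1 added, and 1, Ifi27l2a alone, without any 1 of the arrays listed above for Rsad2.

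Whether the double bond had another effect at 16 than at 18 carbons was tested as an interaction, the monounsaturated minus saturated difference at 16 carbons minus that at 18. It gave 0 members by limma and 3 with an unadjusted p under 0.05, against 0.00531% of all genes passing and 5.24% with such a p. Those 3 were Ifit2 (0.33, SE 0.10), Herc6 (0.33, SE 0.14) and Lgals3bp (0.30, SE 0.09), each with an adjusted p of 0.929. For Ifit2 the difference of PA from PMA was -0.17 and that of SA from OA 0.16.

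PA replicate 1 carried much of the spread among the members. It held the highest of the 19 values for Rsad2, Ifit1, Ifit3, Irf9, Oasl2, Usp18, Ddx58, Dhx58, Gbp3, Ifi35, Xaf1, Trim25, Rtp4, Samd9l and Trim30a. These 15 members are 40.5% of the 37, where 1.57% of all genes had their highest value on that array. It exceeded the other 3 PA arrays for 26 members (70.3%, against 15.8% of all genes), by a median of 0.25 (all genes -0.04). Above the control mean it was 1.28 higher for Ifit1, 0.89 for Ifit3, 0.76 for Oasl2, 0.51 for Usp18 and 0.47 for Rtp4. Ifi27l2a, at 8.97, was by contrast lowest there among the PA arrays.

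On the other 3 PA arrays the members had a median of -0.01 against control (all genes 0.04), with 18 of 37 above it. PA replicate 2 held the lowest value of 12 members (32.4%), where 18.3% of all genes had theirs. Without PA replicate 1, PA against control gave 2 members that passed, Herc6 and Samd9l, both lower in PA, among 510 genes in all. PA against PMA then gave 3 (Ifi27l2a higher, Herc6 and Lgals3bp lower) among 447 genes, and PA against SA 3 (Cmpk2 higher, Herc6 and Usp18 lower) among 499 genes. PA replicate 1 held the highest PA value of Herc6, Samd9l, Lgals3bp and Usp18, so leaving it out lowers their PA means by construction. These lower calls are not independent of the way that array was picked.

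**Figure D5:**
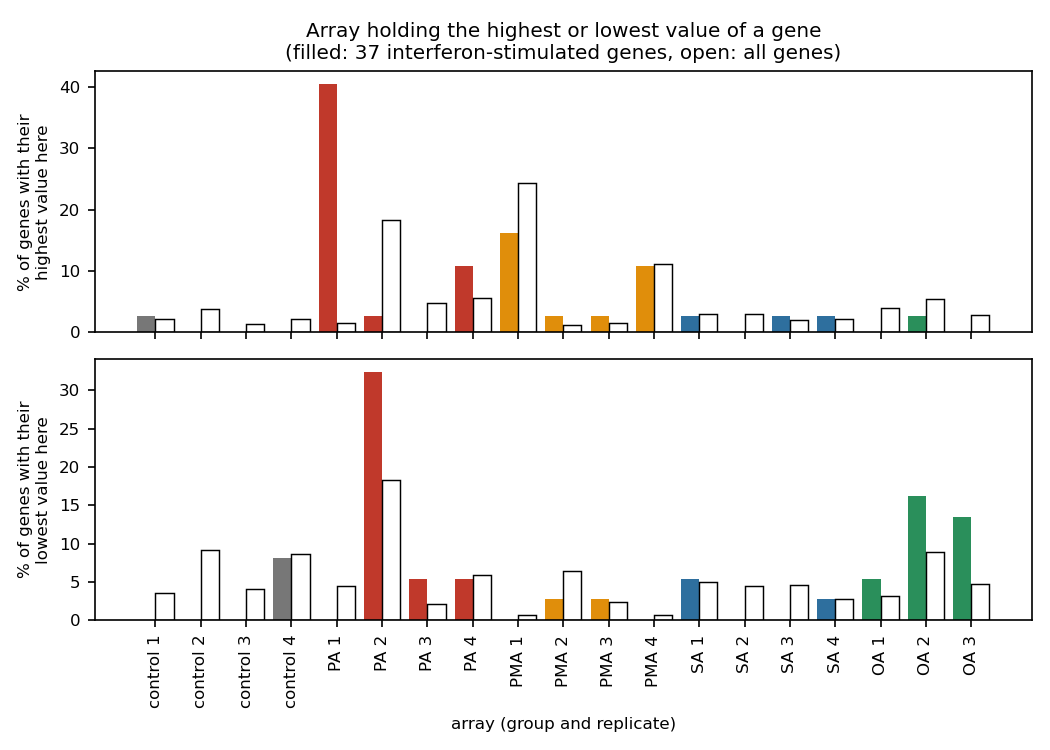
Percent of the 37 members (filled) and of all 18820 genes (open) whose highest or lowest value falls on each of the 19 arrays. PA replicate 1 holds the highest value of 40.5% of members and 1.57% of all genes, and PA replicate 2 the lowest value of 32.4% and 18.3%.

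Other genes of the pathway were read on the same array. Ifnb1, the interferon-beta gene, was 4.11 on PA replicate 1, within the 3.87 to 4.40 of the other 18 arrays. Its signal lay under the array medians of 5.23 to 5.43, where small differences sit close to the background. Of 60 further interferon-induced genes, 11 had their highest value there (18.3%), where 1.57% of all genes did. Of 13 measured type I and III interferon genes, 15 receptor and signalling genes and 15 macrophage and leukocyte markers, 0 did. At the share of all genes, lists this short would mostly hold 0, so these counts cannot tell the lists from other genes. Of 13 adipocyte markers, 2 had their highest value on that array (15.4%). Cxcl10, an interferon-induced chemokine, was 6.26 there and 5.16 to 5.75 elsewhere. The mean of the 15 leukocyte markers on PA replicate 1 was 4.65, within the 4.63 to 4.84 of all arrays, and that of the adipocyte markers 11.31. The mean of the 10 preadipocyte and fibroblast markers was 9.244 there, the lowest of the 19 arrays, next to 9.264 on control replicate 4, and 3 of the 10 had their lowest value there. The source of the high values on this array was not tested.

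Upstream of the members, few genes passed. The 13 measured interferon genes of 20 listed and Ifng had 0 passing in all 12 comparisons by limma, with 0 to 3 of the interferon genes and 0 of 1 for Ifng at an unadjusted p under 0.05, where 2.4% to 21.4% of all genes had such a p. Ifnb1 had group means of 4.07 to 4.18, under the array medians. Of 15 measured receptor and signalling genes of 16 listed, only Ifngr1, a chain of the interferon-gamma receptor, passed: it was lower in PA than in OA by 0.25 (fitted difference -0.25, SE 0.06, adjusted p = 0.0425). That call was lost without control replicate 1, 3 or 4, PA replicate 2 or 4, PMA replicate 3 or 4, SA replicate 2 or 3, or any 1 of the OA replicates (adjusted p = 0.0501 to 0.162). Ifnar1 had group means of 8.74 to 8.83 and Ifnar2 of 10.47 to 10.61. Of 16 measured sensing adaptors and kinases of 17 listed, 0 passed by limma in any of the 12 comparisons, with 0 to 5 at an unadjusted p under 0.05. The 5 were in PMA against control, 4 with higher and 1 with lower means (31.25%, against 16% of all genes). OA against control had 4, of which 2 were higher and 2 lower (25%, against 11.6% of all genes).

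Among 60 measured further interferon-induced genes of 73 listed, 0 to 5 passed in a comparison. Against control, 0 passed by limma in PA and SA. There 12 genes (20% of the 60) and 7 genes (11.7%) had an unadjusted p under 0.05, as 15.4% and 8.53% of all genes did. In PMA 1 fell (Znfx1), against 0.266% of all genes passing, and in OA 2 fell, Znfx1 and Casp4, an inflammatory caspase, against 0.404% of all genes falling. Casp4 fell by 0.43 (adjusted p = 0.0259), a call lost without control replicate 2, 3 or 4 or any 1 of the OA replicates (adjusted p = 0.0529 to 0.138). In PA against OA, 4 were higher (Ccl5, Cxcl10, Tap2, Znfx1) and 1 lower (Ifi30, a lysosomal thiol reductase), against 1.92% of all genes passing and 0.696% passing as higher. The call for Ifi30 was lost without OA replicate 1 (adjusted p = 0.0618) or 3 (0.0928). Cxcl10 was 6.26, 5.45, 5.75 and 5.61 in PA and 5.33, 5.19 and 5.16 in OA, a difference of 0.54 (SE 0.12, limma adjusted p = 0.0224). The groups did not overlap, and PA replicate 1 was highest. Without that array the difference was 0.37 (adjusted p = 0.0113), and the call was lost without OA replicate 2 (0.0801) or 3 (0.115). Tap2, a peptide transporter for antigen presentation, differed by 0.28 (SE 0.06, adjusted p = 0.0279), a call lost without PA replicate 2 (0.0709) or 4 (0.0776) or OA replicate 2 (0.0836) or 3 (0.131).

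In PA against PMA, Ccl5 (1.18, adjusted p = 4.39e-05) and Znfx1 (0.62, adjusted p = 8.58e-05) were higher in PA by limma, and Ifi30 (-0.35, adjusted p = 0.00356) and Ly6e (-0.22, adjusted p = 0.0473) lower, against 0.962% of all genes passing. Ccl5 was 7.21 on PA replicate 1 and 5.36 to 6.65 elsewhere, so that array raises its PA mean. Ly6e, a membrane-anchored protein of the LY6 family, passed in 6 of the 19 fits that leave out 1 array, and its adjusted p reached 0.165 without PA replicate 4. Ccl5 was also higher in SA than in OA (0.92, adjusted p = 0.0116) and than in PMA (0.95, adjusted p = 0.000988), where 0.0319% and 0.244% of all genes passed. The SA to OA call was lost without SA replicate 1 (adjusted p = 0.0587) or OA replicate 3 (0.211). Znfx1 was higher in PA than in SA (0.37, adjusted p = 0.0341, against 0.143% of all genes passing), a call lost without PA replicate 3 or 4, PMA replicate 3 or SA replicate 1 or 2 (adjusted p = 0.0509 to 0.149). In PMA against OA and in the interaction 0 of the 60 passed by limma, with 7 and 5 at an unadjusted p under 0.05.

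Over both chain lengths 3 further genes passed, against 0.553% of all genes. The chemokine gene Ccl5 was higher with the saturated acids by 1.05 (SE 0.09, limma adjusted p = 4.51e-06) and Znfx1, an RNA helicase-like antiviral sensor, by 0.47 (SE 0.05, adjusted p = 7.77e-05). Ifi30 was lower with them (-0.28, SE 0.04, adjusted p = 0.00104). All 3 passed without any 1 of the 19 arrays, and without PA replicate 1 the difference of Ccl5 was 0.96. Like Ifi27l2a, Znfx1 on its brighter probe set was as high in PA (9.18 to 9.38) as in control cells (9.20 to 9.23) and lower in PMA (8.60 to 8.69) and OA (8.55 to 8.60), but its dimmer probe set averaged 7.71 in PA and 7.77 in control cells and 7.86 in PMA and in OA, the opposite direction. The median of the 60 genes was -0.03, beside -0.01 for all genes.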

How the data were processed

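Total RNA (100 ng per array, integrity number above 9, per the labels) was hybridised to 19 Affymetrix Mouse Gene 1.1 ST arrays. The deposited values are log2 signals per probe set; RMA, R 2.15.0 and affy 1.34.0 are named in the submitters' processing notes, without roles or order. RMA shrinks differences of dim probe sets, and few arrays per group limit how small a difference can be called. Here, 35556 probe sets were matched to the platform annotation: 21218 carried 1 symbol, 1881 several and the rest none. The brightest single-symbol probe set per gene, by mean over all arrays, gave 18820 genes.

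A limma 3.58.1 model (R 4.3.3) with a mean per group over all 19 arrays was fitted to all genes, with 12 contrasts, and p-values were adjusted by Benjamini-Hochberg over all genes in each contrast. The threshold was an adjusted p under 0.05. The script was tested on simulated data. The 18 members with full statistics were named by a rule on size and p. The members and lists were chosen with earlier results of these data known. Deviations of same-numbered arrays correlated from -0.43 to 0.40 between groups, with no uniform sign, so no block was used in the main fit. Alternatives covered the filter on dim genes, every probe set, between-array normalization, the spread model, the block, the arrays fitted and leaving out arrays.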

Additional observations from a re-analysis of the deposited data

Results flagged for a closer look

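Within groups of 4 arrays, 148 sets of member values were screened for a single array that stands far from the other 3 (Dixon's test at the 95% level), and 8 met it. Chance marks about 5% of such sets. On PA replicate 1, Oasl2 was highest at 7.05 (the other PA arrays 6.18 to 6.30) and Herc6 highest at 6.25 (5.72 to 5.80). On PMA replicate 1, Irf1 was highest at 8.28 and Herc6 highest at 6.26. In SA, Irf1 was highest on replicate 2 at 8.11, Lgals3bp lowest on replicate 2 at 10.49, and Irf7 lowest on replicate 3 at 6.03. In control cells, Cmpk2 was lowest on replicate 4 at 4.42, beside 4.46 on the other 3.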

How the results depend on the processing

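No called value changed sign under any setting run. In OA against control the count was 2 (Ifi27l2a and Ifitm3) instead of 1 without dim genes, with cyclic loess, with a trended and robust spread, with the replicate block, with only the groups compared, without PA replicates 1 and 2, without PA replicates 2 and 4 and with array quality weights. In PA against OA it was 2 with the trended spread, without PMA replicates 1 and 4 and with weights, and 0 with only the groups compared or without PA replicates 2 and 4. In PA against PMA it was 2 without dim genes, with the trended spread and with weights, and 0 with every probe set, the replicate block, only the groups compared, or without PA replicates 2 and 4 or PMA replicates 1 and 4. For saturated against monounsaturated acids it was 1 without dim genes (Rsad2 is among those left out), with loess, the block, only the groups compared or without PA replicates 2 and 4, and 0 with every probe set or without PMA replicates 1 and 4. PMA against control gave 1 (Ifi27l2a) without dim genes, with loess, the trended spread, only the groups compared and weights. SA against control gave 1 (Usp18) without PA replicates 1 and 2, SA against OA 1 (Rsad2) with only the groups compared or weights, and SA against PMA 1 (Ifit1) with only the groups compared. Causes were not tested. The member median became -0.048 in PA against control and -0.055 in PA against SA without PA replicates 1 and 2, and the latter ran from -0.043 to 0.062 when 1 array was left out. Leaving out 1 array, counts ran from 0 to 2 in OA and in PA against control, 1 to 4 in PA against OA, 0 to 3 in PA against PMA and PA against SA, and 1 to 3 for saturated against monounsaturated acids, and stayed at 0 elsewhere. The settings that leave out array pairs and the weights were chosen after seeing the data. So was the choice of PA replicate 1 as the array to report calls with and without. The 6 dim members limit what the arrays can show.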

Other observations

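Neighbouring members did not share their values across groups in a uniform way. Ifit2 and Ifit3 have no protein-coding gene between them on chromosome 19, yet the highest Ifit2 group mean was in PMA (5.89), where Ifit3 was lowest (7.14). Oasl1 and Oasl2 on chromosome 5 were both lowest in OA, at 5.78 and 6.13. Gbp3 and Gbp7 on chromosome 3 both had their lowest group means in OA, at 5.58 and 6.07, beside 5.66 and 6.16 in control cells, and neither passed.

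Cd68, a lysosomal marker used for macrophages and also present in other cells, was lower in SA than in PMA by a log2 difference of -0.58 (limma adjusted p = 0.00808), the only one of the 15 macrophage and leukocyte markers to pass in any of the 12 comparisons. Adgre1 and the interferon-stimulated genes did not pass in that comparison. Of the 15 markers, 7 had an unadjusted limma p under 0.05 in PA against control, 6 with higher means (15.4% of all genes). In PA against OA 6 did, 5 of them higher (21.4%), and 0 to 3 did in the other comparisons. Of 13 adipocyte markers, 0 passed against control in any group. In PA 2 had such a p, both higher (15.4%, as for all genes), and in PMA 4, of which 3 were higher and 1 lower (30.8%, against 16% of all genes). In SA 5 did, all higher (38.5%, against 8.53%), and in OA 4, all higher (30.8%, against 11.6%). Lep passed as higher in SA than in PMA. Their part in the member values was not tested.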
